A study of Mus musculus with 4 samples.

Results

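The genes described here encode claudins and the other main proteins of epithelial cell junctions. They were taken as a list of 33 symbols, 18 claudins and 15 further genes of the tight junction, the adherens junction and the desmosome, and their probes were found through the RefSeq transcript accession that the array files give for each spot. All 33 were on the array, among 32585 genes or transcript identifiers in all. Of the 33, 27 had 1 probe and 6 had 2 probes (*Cldn2*, *Cldn4*, *Ocln*, *Marveld3*, *Cxadr* and *Dsg2*), and each gene is represented by the probe of highest mean unless the other is named.

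RNA came from spinal cord and duodenum of male IP6K2-KO mice and wild-type (WT) littermates aged 20 weeks. IP6K2 is a kinase that makes inositol pyrophosphates, and in the KO allele exon 6, which codes for part of its kinase domain, is deleted. All animals had been kept on the plant-based diet CE-2, then received iVid-neo, a purified diet, during 1 week, and were fasted for 48 h. There were 4 1-colour arrays, 1 for each genotype and tissue, so the groups were WT spinal cord, KO spinal cord, WT duodenum and KO duodenum with 1 array each, differences cannot be set against a spread over mice, and nothing was tested.

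The level of a gene is given here as log2 of the processed signal (the background-subtracted brightness of its spots) minus the 75th percentile of the array, and a difference is one level minus another on this log2 scale. Levels are always listed in the order WT spinal cord, KO spinal cord, WT duodenum, KO duodenum. The brightest gene of a list means the one of highest mean level taken over every sample. The 75th percentile of the signal was 905, 971, 68.0 and 323 in that order, and the scanner software flagged 76.7%, 77.4%, 51.6% and 66.3% of the 39429 probes as well above background. The error given after ± is a technical SD from probes printed 10 times on each array, which covers spots and not mice. A probe that passed the background flag on just 1 array of a pair gives only a lower bound, written "at least" and computed against the higher of the dimmer probe's own level and the lowest level well above background on that array.

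*Ip6k2* itself, with 1 probe, had levels of −1.0, 0.44, 1.04 and 0.83. It was higher by 1.45 ± 0.065 on the spinal cord array labelled KO than on the WT array, and differed by −0.21 ± 0.084 in the duodenum. Where the probe lies relative to exon 6 was not analysed here, and a probe outside the deleted exon would check nothing. The KO arrays are therefore called arrays labelled KO throughout.

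The tissue labels fit the levels of their defining genes, bounds included. All 9 enterocyte genes examined were at least 2-fold higher in duodenum on both pairs of arrays, where 30.2% and 30.3% of all genes were. All 9 were well above background on both duodenum arrays, and 4 of the 9 also on each spinal cord array. The intestinal alkaline phosphatase gene *Alpi*, chosen after its values were seen, had levels of −9.88, −9.23, 6.92 and 6.82, not well above background in spinal cord. All 7 neuronal genes and 7 of 8 oligodendrocyte genes were at least 2-fold lower in duodenum on both pairs of arrays. Of all genes 23.1% were on the WT arrays and 25.4% on the arrays labelled KO. All 7 neuronal and all 8 oligodendrocyte genes were well above background on both spinal cord arrays. On the WT duodenum array and the one labelled KO, 4 and 6 neuronal and 5 and 6 oligodendrocyte genes also were. Of all genes 75.5%, 76.1%, 51.8% and 65.6% passed that flag on the arrays in order. The duodenum samples also held RNA of pancreatic acinar cells, with all 11 acinar genes well above background on both arrays, and the brightest of them, *Amy2a5*, had levels of −1.22, −1.51, 10.15 and 9.15.

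Tight junctions seal the space between neighbouring epithelial or endothelial cells. Claudins are membrane proteins whose extracellular loops meet across that space, and the mix of claudins in a tissue sets whether the seal is tight or lets small ions and water through. Occludin, the MARVEL-domain proteins and the junctional adhesion molecules share the junction, zonula occludens proteins and cingulin tie it to actin, and E-cadherin, EpCAM and the desmosomal cadherins hold cells together below it. Because each sample is a whole tissue, fewer cells of a type and less RNA per cell cannot be told apart in any comparison here.

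Between the tissues, most of the genes were higher in the duodenum. Of the 33, 29 could be compared on the WT arrays and 20 of them (69.0%) were at least 2-fold higher in the duodenum, 15 measured on both arrays and 5 as bounds, whereas 30.2% of all 25218 genes compared were. On the arrays labelled KO it was 20 of 30 (66.7%), against 30.3% of all genes. In the other direction 5 genes were at least 2-fold lower in WT duodenum (17.2%, against 23.1% of all genes) and 7 on the arrays labelled KO (23.3%, against 25.4% of all genes). The shares depend on the filter. With both arrays required well above background, 15 of 21 were at least 2-fold higher in WT duodenum, against 43% of all genes. The arrays labelled KO gave 16 of 23, against 33.6%. With no filter on dim probes 24 of 33 were higher in WT duodenum, against 50.5% of all genes. The arrays labelled KO then gave 23 of 33, against 39.6%. The median difference over the 21 genes measured in both WT tissues was 2.94, against 0.63 over all 16262 such genes, and 3.67 against 0.30 on the arrays labelled KO. Scaling moved all genes between the tissues together, and the median of all genes on the WT arrays was −2.08 with quantile normalization within each tissue and −4.41 with scaling on spiked-in control RNA, under which the median of the junction genes was 0.19 and −2.09. Relative to the median of all genes, the junction genes were higher in WT duodenum by 2.32 under the main scaling, 2.27 and 2.32 under those scalings, 0.81 with normexp background correction and 1.87 with normexp and flagged local backgrounds replaced. The spiked-in scaling shifts all genes of an array alike, so its value equals the main one by construction.

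Of the 33 genes, 24, 26, 26 and 27 were well above background on the arrays in order, against 75.5%, 76.1%, 51.8% and 65.6% of all genes. On all 4 arrays 21 were, 4 only on both duodenum arrays (*Cldn2*, *Cldn4*, *Cldn8* and *Epcam*) and 2 only on both spinal cord arrays (*Cldn13* and *Cgnl1*). *Cldn6*, *Cldn16* and *Cldn18* were not well above background on any array. The remaining 3 were *Cldn1*, well above background only on the spinal cord array labelled KO at a signal of 5.46, *Cldn14*, missed only on the WT duodenum array, and *Cdh1*, missed only on the WT spinal cord array. *Cldn16*, a claudin of the kidney, had signals of 0.955, 0.962, 0.956 and 0.955, and *Cldn18*, whose forms mark stomach and lung, had signals of 1.21, 1.5, 0.947 and 3.49.

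**Figure D1:**
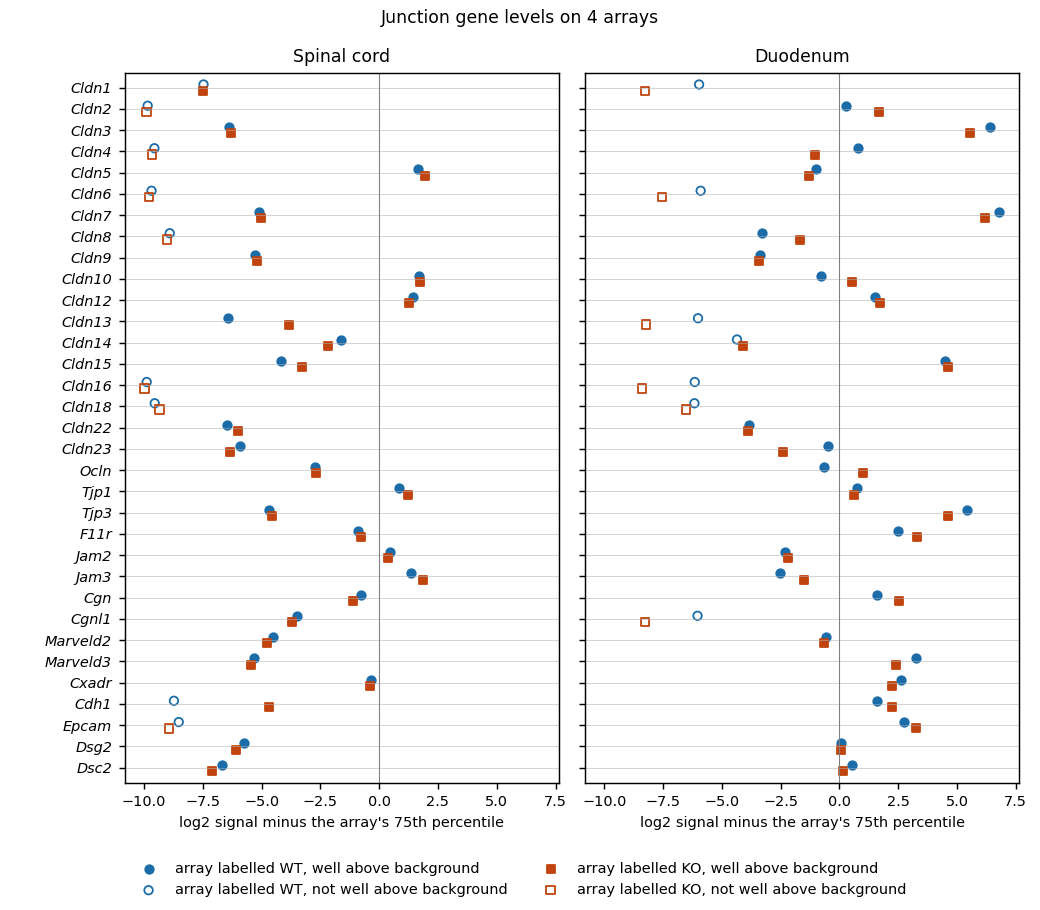
Levels of the 33 junction genes (log2 signal minus the 75th percentile of the array, horizontal axis) on the spinal cord arrays (left) and duodenum arrays (right), with circles for WT, squares for arrays labelled KO and open symbols where the probe was not well above background. *Cldn3* and *Cldn7* move from −6.37 and −5.11 in WT spinal cord to 6.42 and 6.81 in WT duodenum, while *Cldn5* goes from 1.66 to −1.01; levels of different genes come from different probes and are not compared, and scaling on spiked-in controls shifts each array as a whole.

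Among the claudins, *Cldn3* and *Cldn7*, both widespread in gut epithelium, differed most between the WT tissues of those measured on both arrays. *Cldn3* had levels of −6.37, −6.32, 6.42 and 5.55, a difference of 12.78 ± 0.086 between the WT tissues and 11.87 between the arrays labelled KO. *Cldn7* had levels of −5.11, −5.03, 6.81 and 6.20, with differences of 11.91 ± 0.085 and 11.24. Both were well above background in spinal cord too, at signals of only 10.9 and 26.2 on the WT array. Between the spinal cord arrays the technical SDs of *Cldn3* and *Cldn7* were 0.26 and 0.14. The smaller SDs of their tissue differences may therefore understate the error. *Cldn15*, which forms a sodium-permeable pore and is a main claudin of the small intestine, had levels of −4.16, −3.27, 4.50 and 4.64 and was higher in the duodenum by 8.66 ± 0.086 on the WT arrays. *Cldn4*, a sealing claudin, and *Cldn2*, a cation pore of leaky epithelia, had no level well above background in spinal cord, and were at least 355-fold and 248-fold higher in WT duodenum. *Cldn8*, better known from distal nephron and colon, was at least 20.7-fold higher there, and *Cldn23* was higher by 5.42 ± 0.24. These sizes depend on the processing. With normexp the log2 bounds of *Cldn4*, *Cldn2* and *Cldn8* went from 8.47, 7.95 and 4.37 to 1.98, 1.79 and 0.68, and with flagged local backgrounds replaced to 4.38, 4.19 and 3.04. *Cldn3* and *Cldn7* went to 7.25 and 7.45 with normexp and to 9.41 and 9.45 with the replacement, and *Cldn23* to 1.25 and 3.43. With scaling on spiked-in controls *Cldn23* was 0.38, under 2-fold, and *Cldn8* gave no bound on the WT arrays.

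The claudins at least 2-fold lower in duodenum on the WT arrays were *Cldn5*, *Cldn10* and *Cldn14*, and on the arrays labelled KO *Cldn13* also, as a bound of at least 5.15-fold. *Cldn5*, the main claudin of the endothelial barrier of brain and spinal cord, had levels of 1.66, 1.96, −1.01 and −1.30, a WT difference of −2.66 ± 0.085. *Cldn10* had levels of 1.70, 1.75, −0.79 and 0.55 and a WT difference of −2.50 ± 0.085, which was −1.20 ± 0.059 on the arrays labelled KO. *Cldn14* was at least 5.16-fold lower in WT duodenum. Under both forms of normexp neither *Cldn14* on the WT arrays nor *Cldn13* on the arrays labelled KO gave a bound, and *Cldn14* on the arrays labelled KO went from −1.92 to −0.19. *Cldn12*, with levels of 1.42, 1.25, 1.52 and 1.71, differed by 0.10 ± 0.071 between the WT tissues, the only claudin measured in both that was within 2-fold there. It was −2.59 with quantile normalization within each tissue and −4.94 with scaling on spiked-in controls, both past 2-fold lower. *Cldn9* and *Cldn22* were dim on all arrays, with signals of 23.2, 26.1, 6.60 and 30.3 for *Cldn9* and 10.1, 15.3, 4.78 and 21.6 for *Cldn22*, and their duodenum excess of 1.92 and 2.65 on the WT arrays turned to −0.75 and −0.03 with quantile normalization within each tissue.

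Endothelium was examined beside *Cldn5*. All 12 endothelial genes were on the array, 12 of them well above background on each spinal cord array and 10 and 12 on the WT duodenum array and the array labelled KO. Their summed scaled signal (the sum over genes of signal divided by the 75th percentile of the array) was 12, 13.9, 26.9 and 13.4, and the brightest, *Vwf*, had levels of 0.95, 1.23, 2.48 and 1.48. The sum was higher in duodenum on the WT arrays and nearly equal on the arrays labelled KO, and *Kdr*, with levels of −0.66, −0.72, 3.94 and 1.52, made up most of it in WT duodenum. Between the WT tissues 3 of the 12 were at least 2-fold higher in duodenum and 3 lower, where 30.2% and 23.1% of all genes were. The endothelial genes had a median of 0.44 over 10 measured in both, from −1.64 for *Flt1* to 4.61 for *Kdr*. Their part in the *Cldn5* difference was not tested.

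Of the other tight junction membrane proteins, occludin (*Ocln*) had levels of −2.73, −2.69, −0.65 and 0.98 and was higher in WT duodenum by 2.08 ± 0.14, which turned to −0.59 with quantile normalization within each tissue and −2.96 with scaling on spiked-in controls. Its other probe gave 4.31 ± 0.39 under the main scaling, and the mean of the probes 3.20. *Marveld2*, the RefSeq neighbour of *Ocln*, codes for tricellulin of the corners where cells meet. It had levels of −4.53, −4.76, −0.58 and −0.65 and a WT difference of 3.95 ± 0.18. *Marveld3* was higher by 8.59 ± 0.13, the junctional adhesion molecule gene *F11r* by 3.40 ± 0.085 and the adenovirus receptor gene *Cxadr* by 2.94 ± 0.073, and with scaling on spiked-in controls *Marveld2*, *F11r* and *Cxadr* turned to −1.09, −1.64 and −2.09. The other *Cxadr* probe, not well above background in spinal cord, was at least 140-fold higher in WT duodenum under the main scaling. The other junctional adhesion molecules went the opposite way, with levels of 0.44, 0.39, −2.30 and −2.17 for *Jam2* and 1.35, 1.88, −2.54 and −1.53 for *Jam3*, and WT differences of −2.74 ± 0.12 and −3.89 ± 0.10. Both are known from endothelium, and *Jam3* also from glia.

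Plaque genes were split. *Tjp3* (ZO-3), limited to epithelia, had levels of −4.70, −4.55, 5.43 and 4.60 and a WT difference of 10.13 ± 0.085, whereas *Tjp1* (ZO-1), found at many kinds of junction, had levels of 0.84, 1.23, 0.74 and 0.63 and a WT difference of −0.09 ± 0.085. With quantile normalization within each tissue *Tjp3* was 7.26 and *Tjp1* −2.76. With scaling on spiked-in controls they were 5.09 and −5.13. Cingulin (*Cgn*) was higher in WT duodenum by 2.40 ± 0.085, which turned to −0.31 and −2.64 under the same alternatives as *Ocln*. Its paralogue *Cgnl1*, with signals of 80.6, 73.6, 1.04 and 1.04, was not well above background in either duodenum sample.

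All 4 adhesion and desmosome genes were at least 2-fold higher in the duodenum on both pairs of arrays. Of all genes, 30.2% were on the WT arrays and 30.3% on the arrays labelled KO. *Epcam* had levels of −8.52, −8.94, 2.74 and 3.24, not well above background in spinal cord, and was at least 1350-fold higher in WT duodenum and at least 2140-fold on the arrays labelled KO. E-cadherin (*Cdh1*) was at least 609-fold higher on the WT arrays. On the log2 scale the WT bounds of *Epcam* and *Cdh1* went from 10.40 and 9.25 to 3.62 and 2.75 with normexp and to 6.03 and 5.14 with flagged backgrounds replaced. Of the desmosomal cadherins, *Dsg2* had levels of −5.76, −6.10, 0.08 and 0.08 and *Dsc2* of −6.69, −7.10, 0.55 and 0.14, with WT differences of 5.85 ± 0.23 and 7.24 ± 0.23. With scaling on spiked-in controls these were 0.81, under 2-fold, and 2.20.

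In the duodenum, the arrays labelled KO and WT differed in both directions among these genes. Of 27 genes that could be compared, 5 (18.5%) were at least 2-fold higher on the array labelled KO, *Ocln*, *Cldn8*, *Cldn2*, *Cldn10* and *Jam3*, where 7.20% of all 21429 genes were. *Cldn23* and *Cldn4* were at least 2-fold lower, 2 of 27 (7.41%) against 11.9% of all genes. The median difference over the 26 genes measured on both arrays was −0.03, with 12 above 0 and 14 below, against −0.11 over all 16812 such genes, of which 55.8% were below 0. The median of all genes was 2.89 with scaling on spiked-in controls. That scaling puts every one of the 27 genes, and 96.2% of all genes, at least 2-fold higher on the array labelled KO. All directions in the duodenum are therefore relative to the bulk of genes on the array.

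*Ocln* had duodenum levels of −0.65 and 0.98 and a difference of 1.63 ± 0.086. Its other probe, listed under the same transcript, had duodenum levels of −2.0 and −1.89 and a difference of 0.11 ± 0.16, which is inside its technical SD, so the increase was seen by 1 of 2 probes. For *Cldn2* the probes went in opposite directions. The brighter had duodenum levels of 0.29 and 1.69 and a difference of 1.40 ± 0.084, and the dimmer had −1.51 and −2.17 and −0.65 ± 0.15. With the mean of the probes the *Cldn2* difference was 0.37 and the *Ocln* difference 0.87.

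The 3 other genes that were higher have 1 probe each. *Cldn10*, with duodenum levels of −0.79 and 0.55, differed by 1.35 ± 0.090, and by 0.64, under 2-fold, with normexp background correction. *Cldn8* and *Jam3* were dim on the WT duodenum array, at signals of 6.95 and 11.7, against 101 and 112 on the array labelled KO. Their differences were 1.61 ± 0.19 and 1.01 ± 0.16, and these turned to −0.27 and −0.24 with the same correction.

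*Cldn4* was the only gene past 2-fold whose probes moved alike. The brighter probe had duodenum levels of 0.81 and −1.04 and the other −0.12 and −1.59, with differences of −1.85 ± 0.090 and −1.48 ± 0.12. *Cldn3*, which lies next to *Cldn4* in the RefSeq annotation with no other protein-coding gene between them, had duodenum levels of 6.42 and 5.55 and a difference of −0.86 ± 0.068, also below 0 but under 2-fold. *Cldn23*, an intronless claudin of intestinal surface cells, had duodenum levels of −0.50 and −2.40 and a difference of −1.91 ± 0.13. Scaling on spiked-in controls turned *Cldn4* to 1.15 and *Cldn23* to 1.09.

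The other claudins of the duodenum differed by less than 2-fold. *Cldn7* differed by −0.60 ± 0.068, *Cldn15* by 0.14 ± 0.069, *Cldn12* by 0.19 ± 0.077 and *Cldn5* by −0.30 ± 0.12. For *Cldn9* and *Cldn22* the differences, −0.05 ± 0.30 and −0.07 ± 0.34, were inside their technical SDs. With normexp they were −1.15 and −1.21, past 2-fold lower, and *Cldn15* was 0.67.

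Among membrane and plaque genes of the tight junction, *Cgn* had duodenum levels of 1.61 and 2.51 and *F11r* of 2.50 and 3.29, with differences of 0.91 ± 0.074 and 0.79 ± 0.070, both short of 2-fold. They passed it with normexp, at 1.23 and 1.30, and *Cgn* also with quantile normalization within the tissue, at 1.03. *Tjp3* differed by −0.83 ± 0.069 and *Tjp1* by −0.11 ± 0.084. *Marveld3* has probes for different transcripts, and they disagreed: −0.86 ± 0.070 for NM_212447 and 0.09 ± 0.083 for NM_028584. The probes of *Cxadr* are also for different transcripts and were both below 0, −0.38 ± 0.074 for NM_001025192 and −0.95 ± 0.12 for NM_009988. *Marveld2*, at −0.07 ± 0.11, and *Jam2*, at 0.12 ± 0.18, were inside their technical SDs.

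Of the adhesion genes, *Cdh1* is the only one of the 33 printed 10 times on each array. In the duodenum its spots ran from 196 to 219 for WT and from 1395 to 1596 on the array labelled KO, so the spots of each array were close together. The difference of levels was 0.64 ± 0.024, where the error is for the mean over spots. The levels of its single spots had SDs of 0.052 for WT and 0.056 on the array labelled KO. *Epcam* differed by 0.50 ± 0.069 and *Dsc2* by −0.41 ± 0.083. The probes of *Dsg2*, listed under the same transcript, gave 0.00 ± 0.086 for the one used and −2.61 ± 0.10 for the other, whose signals were 131 for WT and 102 for the array labelled KO. By the mean of its probes *Dsg2* would be at least 2-fold lower, at −1.30.

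**Figure D2:**
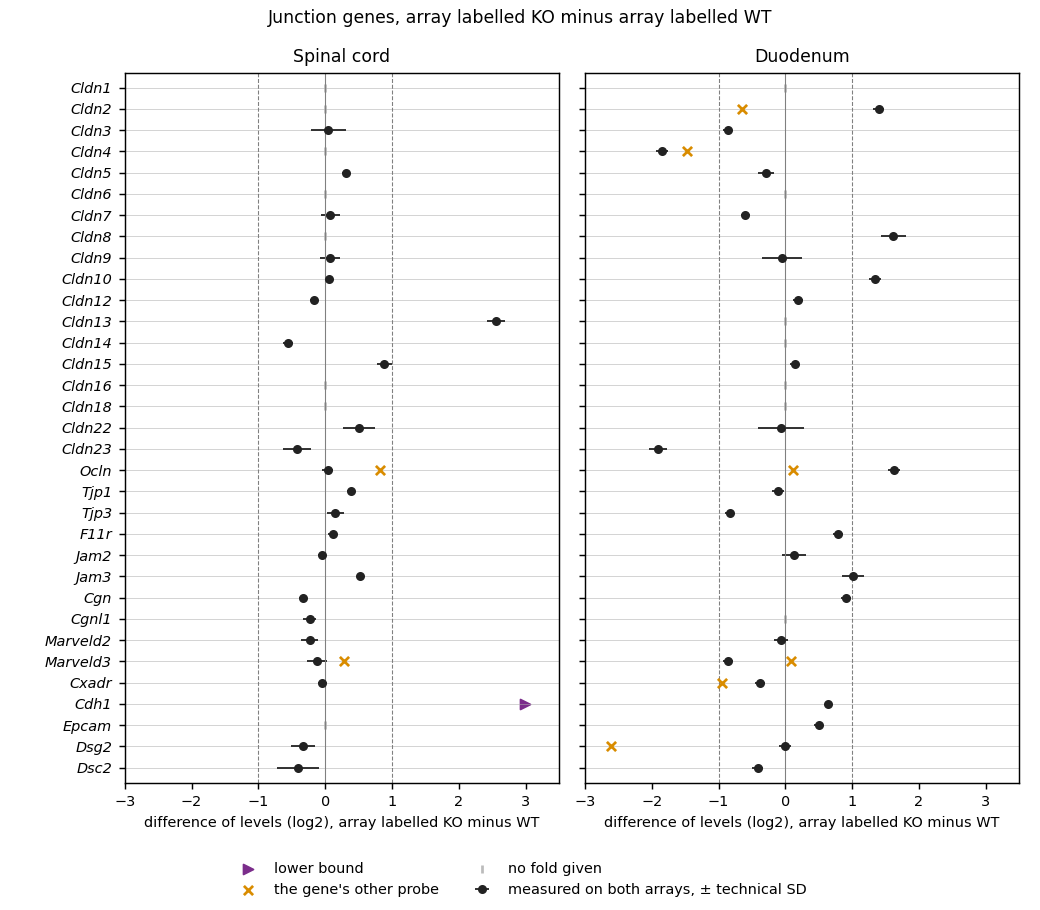
Difference of levels (log2, array labelled KO minus WT, horizontal axis) for the 33 genes in spinal cord (left) and duodenum (right). Points are the probe used ± technical SD over spots, triangles are lower bounds, crosses are a gene's other probe where it was measured on both arrays, small grey ticks mark genes with no fold, and dashed lines mark 2-fold. In the duodenum *Cldn2*, *Ocln* and *Dsg2* have probes far apart, and scaling on spiked-in controls would shift every duodenum point to the right.

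Differences in the duodenum also ran with brightness. Over all genes measured on both arrays the median difference was −0.05 where the mean duodenum level was below 0, 0.04 between 0 and 2, −0.17 between 2 and 4, −0.34 between 4 and 6 and −0.73 above 6. In bins of 1 log2 unit it was −0.46 for the dimmest, so it fell off at both ends. *Cldn3*, *Cldn15* and *Tjp3* fall between 4 and 6 and *Cldn7* above 6. With quantile normalization within the tissue, which gives both arrays the same distribution of values, *Cldn7* differed by −0.07, *Cldn3* by −0.45, *Tjp3* by −0.47 and *Cldn15* by 0.46. *Cldn4* stayed at −1.84 and *Cldn23* at −1.88.

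**Figure D3:**
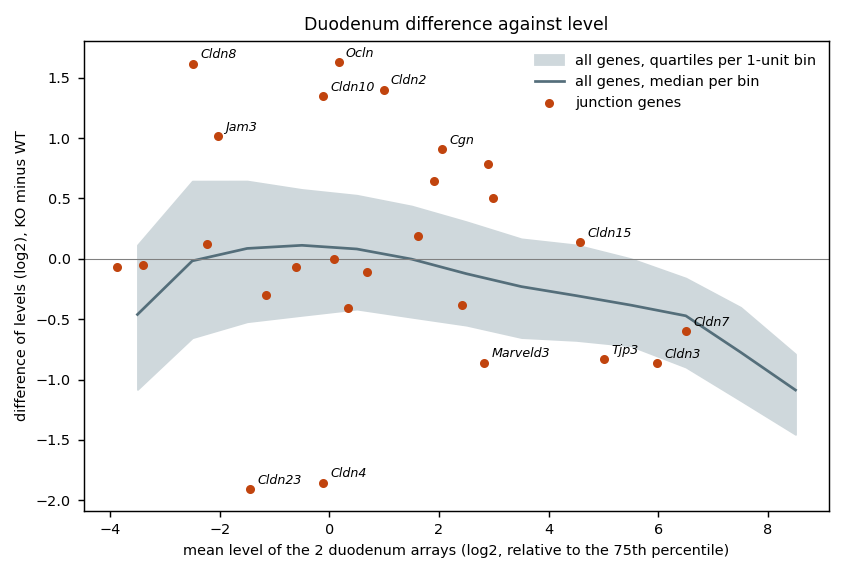
Difference of levels between the duodenum array labelled KO and the WT array (log2, vertical axis) against the mean level of both arrays (log2 relative to the 75th percentile, horizontal axis). The line and band are the median and quartiles of all genes in bins of 1 log2 unit, and points are the 26 junction genes measured on both arrays. *Cldn4* and *Cldn23* lie below the band and *Ocln*, *Cldn8*, *Cldn10*, *Cldn2* and *Jam3* above it, among others, while the line bends below 0 for bright genes and at the dim end; scaling on spiked-in controls would raise all of it alike.

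Markers of other cells differed between the duodenum arrays as well. For the counts of marker lists below, the shares of all genes at least 2-fold higher and lower were 7.20% and 11.9% in the duodenum and 2.28% and 0.865% in spinal cord. Of 6 gastric surface genes, all on the array, 4 were at least 2-fold higher on the array labelled KO, with a median difference of 3.29 over 5 genes, although their summed scaled signal, 7.62, 6.36, 1280 and 1060, was not higher, most of it in the duodenum being *Tff2*, with levels of −8.64, −9.60, 10.15 and 9.47. The brightest, *Gkn3*, had levels of −2.22, −2.43, 7.06 and 8.07, and the largest increase was 4.63 for *Gkn2*, with levels of −8.82, −9.86, −1.30 and 3.33. *Cldn18*, a claudin of the stomach lining, was not well above background on the duodenum array labelled KO, at a signal of 3.49. It has 1 probe, and whether that probe reads its stomach form was not examined here. Of the 5 parietal and chief cell genes 4 were well above background on that array, *Atp4b* not. Acinar genes were lower, with 8 of 11 at least 2-fold lower, a median of −1.74 and a summed scaled signal of 0.921, 0.929, 16800 and 5510. Enterocyte genes had a median difference of −0.10 over 9 genes, 2 of them at least 2-fold lower, with *Lct* at 0.33 and *Fabp2* at −1.81, a summed scaled signal of 0.401, 0.518, 2910 and 1490 and *Anpep* as the brightest gene. Of the goblet cell genes 2 of 6 were at least 2-fold lower. All 6 erythroid genes that could be compared were at least 2-fold lower on the duodenum array labelled KO, with a median of −3.39, and their summed signals are given with the spinal cord below. What these cells contribute to the junction gene differences was not tested.

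In the spinal cord, few of these genes differed under the main processing. Of 26 that could be compared, 2 (7.69%), *Cldn13* and *Cdh1*, were at least 2-fold higher on the array labelled KO, where 2.28% of all 25216 genes were, and 0 were at least 2-fold lower, against 0.865% of all genes. Over the 24 genes measured on both arrays the median difference was 0.04, against −0.04 over all 24165 such genes. With normexp 0 were at least 2-fold higher and 14 lower, where 0.353% and 38.1% of all genes were. With flagged backgrounds replaced 0 were higher and 0 lower, against 0.702% and 0.0754% of all genes. The array labelled KO is the one on which *Ip6k2* was higher.

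*Cldn13*, a rodent claudin that is made by blood-forming tissue, had levels of −6.41, −3.85, −6.01 and −8.23 and signals of 10.6, 67.1, 1.05 and 1.08. It was higher on the spinal cord array labelled KO by 2.56 ± 0.14, and was not well above background on either duodenum array. Of the 7 erythroid genes found on the array, out of 8 listed, 5 were at least 2-fold higher on that array, with a median of 1.21. Their summed scaled signal was 228, 351, 1530 and 88.4, and the brightest gene was *Hba-a2*, at 7.22, 7.58, 10.27 and 6.08. With normexp background correction *Cldn13* went to −1.48 on an array whose highest local background was 15708, and with flagged local backgrounds replaced it was 0.70, above 0 but under 2-fold.

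*Cdh1* had spinal cord spots from 0.974 to 4.01 on the WT array, with 0 of the 9 unflagged spots well above background, and from 34.3 to 40.6 on the array labelled KO, with 9 of 9. The spots of the arrays do not overlap, and *Cdh1* was at least 7.95-fold higher on the array labelled KO, a bound that went under 2-fold, at 0.63 on the log2 scale, with normexp and flagged backgrounds replaced. Markers of tissue around the cord moved the same way. Of 6 Schwann cell genes 4 were at least 2-fold higher, with a median of 4.17, a summed scaled signal of 6.40, 21.2, 0.807 and 1.30 and *Ncmap* as the brightest gene. Of 5 meningeal genes 4 were higher, with a median of 1.29, a summed scaled signal of 2.91, 11.7, 21.3 and 19.5, *Dcn* as the brightest and the largest increase, 3.58, for *Ogn*. All 6 skeletal muscle genes were at least 2-fold higher, with a median of 4.12, a summed scaled signal of 2.40, 41.6, 0.676 and 0.943, *Acta1* as the brightest and the largest increase, 4.58, for *Ckm*. *Pmp2* of the Schwann list and *Mylpf* of the muscle list were not well above background on the WT array. Whether these tissues carry the *Cdh1* or *Cldn13* signal was not tested.

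Among other epithelial genes in the spinal cord, *Epcam* stayed below the background flag on both arrays, at levels of −8.52 and −8.94, as did *Cldn4*, at −9.56 and −9.65, and *Cldn2*, at −9.85 and −9.90. *Cldn3* and *Cldn7* differed by 0.05 ± 0.26 and 0.07 ± 0.14, inside their technical SDs. *Dsg2* and *Dsc2* differed by −0.34 ± 0.18 and −0.41 ± 0.32, from signals of 16.7 and 8.76 on the WT array. Of the pancreatic acinar genes 2 of 9 were at least 2-fold higher on the array labelled KO, both as bounds, the larger for *Try5*, at signals of 1.19 and 27.5.

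Below 2-fold, *Cldn15* differed most among the other genes under the main scaling, with spinal cord levels of −4.16 and −3.27 and a difference of 0.89 ± 0.11, but it was −1.38 with normexp and 0.34 with flagged backgrounds replaced, where *Jam3*, at 0.49, was further from 0. *Cldn5* differed by 0.31 ± 0.058, *Jam3* by 0.53 ± 0.058, *Tjp1* by 0.39 ± 0.060 and *Jam2* by −0.05 ± 0.060. The 12 endothelial genes had a median of 0.25 in the same comparison, from −0.21 for *Abcb1a* to 0.47 for *Emcn*, none past 2-fold. *Cldn14* was lower by 0.56 ± 0.072 on the log2 scale, *Cgn* differed by −0.33 ± 0.064 and *Cgnl1* by −0.23 ± 0.10. *Cldn10* and *Cldn12* differed by 0.05 ± 0.058 and −0.17 ± 0.057, and *Ocln* by 0.04 ± 0.083, with 0.82 ± 0.18 for its dimmer probe. The *Cldn9*, *Cldn22*, *Cldn23*, *Tjp3*, *F11r*, *Marveld2*, *Marveld3* and *Cxadr* differences lay between −0.42 and 0.50. With normexp those of *Cldn9*, *Cldn22*, *Cldn23*, *Tjp3*, *Marveld2* and *Marveld3* lay between −2.32 and −1.90, and *Cldn14* and *Cgnl1* were −1.12 and −1.54. With flagged backgrounds replaced all of these were within 2-fold.

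Claudins outside the list of 33 were looked at next. Of 10 listed, 9 were found on the array, and *Cldn24*, *Cldn34a* and *Cldn34b1* were not well above background on any array. *Cldn19*, known from Schwann cells, kidney and retina, had levels of −7.57, −2.74, −6.18 and −7.61. It was higher by 4.83 ± 0.14 on the spinal cord array labelled KO, beside the Schwann genes given above. Its signal on the WT spinal cord array was 4.77, close to the lowest level well above background there, −7.66, so the size of this difference is uncertain. *Cldn17* differed by −0.71, and a bound put *Cldn20* at least 2-fold lower, at −1.01. *Cldn11*, the claudin of central myelin, chosen after its values were seen, had levels of 3.92, 3.94, −5.70 and −6.03, differed by 0.02 in spinal cord and was not well above background in duodenum. *Cldnd1*, the brightest of the list, had levels of 1.96, 1.85, 3.65 and 3.24.

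Of 27 other tight junction genes, 0 were at least 2-fold higher on the duodenum array labelled KO and 5 lower, with a median of −0.22 over 25 genes. Of all genes 7.20% were higher and 11.9% lower in that comparison, and 2.28% and 0.865% in spinal cord, which also stand for the lists that follow. The polarity gene *Pard6b* fell furthest, with levels of −7.70, −7.04, 0.08 and −3.27 and a difference of −3.35, and *Rab13*, a trafficking GTPase of the junction, had the largest positive difference, 0.89. In spinal cord 0 of 27 passed 2-fold in either direction, from −0.41 for *Magi2* to 0.65 for *Ybx3*, with a median of −0.01. *Lsr*, which codes for an angulin of the same corners and is the brightest of the list, had levels of 1.08, 1.41, 6.26 and 5.74.

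Of 14 adherens junction genes, 12 could be compared in the duodenum and 1, *Afdn* at −1.28, was at least 2-fold lower, with *Ctnnb1* (β-catenin) at 0.66 as the largest positive difference. In spinal cord 0 of 13 passed 2-fold, from −0.29 for *Nectin4* to 0.44 for *Nectin2*. *Ctnna1*, the brightest, had levels of 2.86, 3.07, 4.85 and 4.99. Of 14 further desmosome genes 8 were measured, and 0 passed 2-fold in either tissue. They ran from −0.67 for *Pkp3*, the brightest at levels of 2.59, 2.43, 5.17 and 4.50, to 0.93 for *Ppl* in the duodenum, and from −0.56 for *Dsp* to 0.17 for *Pkp2* in spinal cord. *Dsg1a*, *Dsg1b*, *Dsg3*, *Dsg4*, *Dsc1* and *Dsc3*, cadherins of stratified epithelia, were not well above background on any array.

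Of 13 gap junction genes, 9 could be compared in the duodenum, 0 were at least 2-fold higher and 2 lower, among them *Gjb1*, the brightest, at −1.02 with levels of 2.36, 2.90, 5.32 and 4.30; *Gjb2* had the largest positive difference, 0.35. In spinal cord 0 of 11 passed 2-fold, and the largest decrease was −0.32 for *Gja4*. The 10 epithelial keratin, villin and brush border genes had a median of −0.20 in the duodenum with 0 past 2-fold, from −0.90 for *Krt19* to 0.20 for *Vil1*. *Cdhr2*, the brightest, had levels of −1.52, −1.59, 7.33 and 7.45. In spinal cord they ran from −0.21 for *Ezr* to 0.33 for *Cdhr5*.

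Because *Cldn3*, *Cldn4*, *Cldn7* and *Epcam* share the excess in duodenum over spinal cord, the RefSeq bases just upstream of their annotated starts (GRCm38.p6) were searched for short motifs on both strands. Of the 33 genes, 22 had an entry in the promoter table, with 32 starts in all, and the 250 bases before each start were read. CAGGTG, an E-box bound by SNAI and ZEB repressors, was present (also as CACCTG) upstream of 8 of the 22 genes (36.4%), *Cldn4*, *Cldn6*, *Cldn7*, *Cldn14*, *Ocln*, *Tjp3*, *F11r* and *Epcam*, against 19.4% of 27025 genes. GGGCGG, a GC box, was found for 16 (72.7%, against 35.4%), AACCGG, part of the grainyhead motif, for 4 (18.2%, against 6.40%), TTTATG, a CDX-type motif, for 3 (13.6%, against 12.4%) and TATAAA for 2 (9.09%, against 14.3%). Genes with several starts were counted once if any start held the motif, so more starts give more ways to match. By start, the motifs in the order above were found at 9, 19, 4, 3 and 3 of 32. Of all 32851 starts 17.2%, 32.7%, 5.62%, 10.8% and 12.4% held them. Of the 8 genes with CAGGTG, *Cldn6* was not well above background on any array and *Cldn14* was lower in duodenum under the main scaling. A match is a description of letters, not a bound site. The stretches for *Cldn3* and *Cldn4*, *Cldn7* (the start with the matches) and *Epcam* follow, 5′ to 3′ along the gene, with capitals at CAGGTG or CACCTG; *Cldn3* has none in this window.
Cldn3, chr5:134985964-134986213, + strand: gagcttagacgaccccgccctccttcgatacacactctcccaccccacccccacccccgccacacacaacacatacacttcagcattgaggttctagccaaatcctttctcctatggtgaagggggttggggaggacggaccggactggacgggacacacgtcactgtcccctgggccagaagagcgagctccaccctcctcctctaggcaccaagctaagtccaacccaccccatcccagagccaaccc
Cldn4, chr5:134946935-134947184, - strand: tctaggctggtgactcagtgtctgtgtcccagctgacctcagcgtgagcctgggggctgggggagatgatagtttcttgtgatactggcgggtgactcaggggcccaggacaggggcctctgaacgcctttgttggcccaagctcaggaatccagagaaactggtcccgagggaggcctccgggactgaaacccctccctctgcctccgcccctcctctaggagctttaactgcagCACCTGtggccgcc
Cldn7, chr11:69965171-69965420, + strand: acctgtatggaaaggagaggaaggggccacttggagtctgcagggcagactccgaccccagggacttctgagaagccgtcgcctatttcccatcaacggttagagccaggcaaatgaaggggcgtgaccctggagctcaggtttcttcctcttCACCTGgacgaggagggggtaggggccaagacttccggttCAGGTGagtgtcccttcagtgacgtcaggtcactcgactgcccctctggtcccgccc
Epcam, chr17:87635729-87635978, + strand: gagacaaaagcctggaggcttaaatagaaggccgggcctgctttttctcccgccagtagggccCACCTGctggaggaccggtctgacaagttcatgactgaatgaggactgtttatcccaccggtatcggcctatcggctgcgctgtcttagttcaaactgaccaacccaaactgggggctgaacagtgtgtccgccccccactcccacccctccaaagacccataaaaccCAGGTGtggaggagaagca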

How the data were processed

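Each of the 4 samples was hybridised to 1 1-colour array. The authors deposited scanner output from Agilent Feature Extraction 11.5.1.1, per the submitters' processing notes, in which the processed signal of each spot is an intensity after background subtraction. They also deposited a series table of log2 values. Its column medians were 5.12, 5.12, 5.11 and 5.12, and it equals log2 processed signal, with signals below 1 raised to 1, after quantile normalization of the 4 arrays, to within 0.0064 for the 39 probes of the 33 genes where well above background. RNA of the gut was collected in a stabilising solution, and RNA quality was checked before labelling, per the labels.

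Control spots and spots with outlier flags were left out, the spots of a probe were averaged, and log2 values had the array's 75th percentile subtracted. RefSeq accessions were named through the RefSeq gene table (GRCm38.p6), which held 25868 of the 26391 NM accessions on the array by probe; the files name an older design build, so the table gave only names and neighbours, and the printed sequences carry its own coordinates. A gene was counted when at least 2-fold apart, and shares of all genes under the same rule are given with the counts of the 33 genes and once with the marker lists and the other junction lists. The technical SD is the median over the 50 probes nearest in brightness among the 399 printed 10 times. It is divided by the square root of the probe's own number of spots. For *Cdh1*, printed 10 times, it is thus an error of the mean over spots. For a probe bright in 1 tissue and dim in the other, the technical SD may be too small. Signal over background limits the dim probes: the lowest level well above background was −7.66, −7.82, −3.99 and −6.22 on the arrays in order. There was 1 array per group, so the number of arrays limits the precision and no test was run. Scripts used Python 3.11.15, numpy 2.4.6, pandas 2.3.3, and R 4.3.3 with limma 3.58.1 for normexp (offset 50), and were tested on simulated data.

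All 33 genes may be named. From each other list the text may name the brightest gene and the largest increase and decrease of each tissue, and any other gene as chosen after its values were seen. Genes not well above background on any array were also named, as were *Cldn20*, *Try5*, *Pmp2* and *Mylpf*, all chosen after their values were seen. The members and lists were chosen with earlier results of these data known. Alternatives were normexp with and without replacement of flagged local backgrounds, quantile normalization of 4 arrays or within tissue, median centring, scaling on 8 spiked-in E1A controls, the mean over a gene's probes, the authors' deposited table, no filter on dim probes, both arrays well above background, and 1.5-fold. *Cldn25*, *Olfm4*, *Defa24*, *Ahsp* and *Cd68* of the lists were not matched by name. Markers of crypt, goblet, Paneth, leukocyte, astrocyte, ependymal, choroid plexus and smooth muscle cells were also listed. In the duodenum their median differences were 0.19, −0.73, −1.10, −0.52, 0.21, −0.17, 0.46 and −0.66, and in spinal cord −0.07, −0.45, 0.91, 0.47, −0.23, −0.31, −0.03 and −0.08, in that order. Neurons and oligodendrocytes had −0.05 and 0.17 in spinal cord.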

Additional observations from a re-analysis of the deposited data

Results flagged for a closer look

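*Cgn* (cingulin, an actin-linked plaque protein) was measured on all 4 arrays and went in opposite directions in the tissues, 0.91 ± 0.074 for duodenum and −0.33 ± 0.064 for spinal cord, array labelled KO minus WT. Its difference was 1.24 higher in the duodenum. It was picked out because the directions were opposite, each past its technical SD, and at least 2-fold apart. The difference between the tissues was not tested, since each rests on 1 array per genotype, and the duodenum direction is relative to the bulk of genes. No other of the 33 genes met that description.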

How the results depend on the processing

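No paired analysis was possible because only 1 array was made for each genotype and tissue. Unless said otherwise, the cause of a change was not tested. The main counts in the duodenum, array labelled KO against WT, were 5 higher and 2 lower with a median of −0.03, those in spinal cord 2 higher and 0 lower with a median of 0.04, and 20 genes were higher in duodenum than in spinal cord on either pair of arrays.

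Normexp gave a duodenum median of −0.13, both with and without replacement of flagged local backgrounds. In both forms 4 were higher (*Cldn2*, *Ocln*, *Cgn* and *F11r*) and 4 lower (*Cldn4*, *Cldn23*, *Cldn9* and *Cldn22*). Of all genes 3.93% were higher and 14.1% lower in both forms. Both put *Cldn10* at 0.64, and turned *Cldn8* to −0.27 and *Jam3* to −0.24. In spinal cord normexp alone gave a median of −1.43, with *Cldn13* at −1.48. There 0 were higher and 14 lower, against 0.353% and 38.1% of all genes. With flagged backgrounds replaced the median was −0.03, and 0 were higher and 0 lower, against 0.702% and 0.0754% of all genes. The WT spinal cord array had a highest local background of 15708, against 47, 36.5 and 46 on the others.

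Scaling on spiked-in controls, which shifts all genes of an array alike, gave a duodenum median of 2.98, 27 higher and 0 lower, with *Cldn4* at 1.15 and *Cldn23* at 1.09, a spinal cord median of −0.13, and 10 genes higher and 16 lower in duodenum between the WT arrays, against 20 and 5 in the main analysis. Between the WT tissues it turned *Cldn9* to −3.12, *Cldn22* to −2.39, *Ocln* to −2.96, *F11r* to −1.64, *Cgn* to −2.64, *Marveld2* to −1.09 and *Cxadr* to −2.09, and on the arrays labelled KO *Cldn9* to −0.064. Quantile normalization within each tissue does not align the tissues. It gave 14 higher and 8 lower on the WT arrays, where 8.64% and 66.4% of all genes were. It turned *Cldn9* to −0.75, *Cldn22* to −0.029, *Ocln* to −0.59 and *Cgn* to −0.31 on the WT arrays. On the arrays labelled KO it turned *Cldn9* to −0.85 and *Cldn22* to −0.54. Without a change of sign, genes at least 2-fold higher in duodenum also went under 2-fold: on the WT arrays *Cldn23*, at 0.38, and *Dsg2*, at 0.81, with scaling on spiked-in controls, where *Cldn8* gave no bound, *F11r*, at 0.65, and *Cxadr*, at 0.19, with quantile normalization within each tissue, and *Cldn8*, *Cldn9*, *Cldn22* and *Ocln*, at 0.68, 0.62, 0.54 and 0.99, with normexp; on the arrays labelled KO *Cldn22*, at 0.22, and *Cxadr*, at 0.74, with the spiked-in scaling, and *Cxadr*, at 0.01, with that quantile normalization.

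The mean of a gene's probes left 3 of 27 higher in the duodenum, against 6.69% of all genes. No filter on dim probes gave 7 of 33 lower, against 38.5% of all genes. At 1.5-fold 8 of 27 were higher and 6 lower, against 17% and 22.5% of all genes. Requiring both arrays well above background left 1 of 24 higher in spinal cord, against 1.92% of all genes, since the bound for *Cdh1* drops out by construction. Under the 8 alternatives that change the values of single genes, *Cldn2*, *Cldn10* and *Ocln* were above 0 in the duodenum in 8 of 8, and *Cldn4* and *Cldn23* below 0 in 7 of 8, the exception being the spiked-in scaling. Most of these alternatives rescale the same probe, and the spiked-in scaling puts all 27 genes above 0, so these counts are not independent checks. The other probe gave −0.65 ± 0.15 for *Cldn2*, 0.11 ± 0.16 for *Ocln* and −1.48 ± 0.12 for *Cldn4*, and *Cldn10* and *Cldn23* have 1 probe. Of all values of single genes under those alternatives, 21 changed sign after passing 2-fold, 489 moved by more than the technical SD and 344 by less. Low signal over background limits *Cldn2*, *Cldn3*, *Cldn4*, *Cldn8*, *Cldn9*, *Cldn13*, *Cldn14*, *Cldn22*, *Cldn23*, *Jam2*, *Jam3*, *Marveld3*, *Cgnl1*, *Cdh1*, *Epcam*, *Dsg2* and *Dsc2*, each under a signal of 25 on at least 1 array compared.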
